A study of Mus musculus with 3 samples.

Results

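The interferon regulatory factor (IRF) genes were followed by their gene symbols, Irf1, Irf2, Irf3, Irf4, Irf5, Irf7, Irf8 and Irf9, and all 8 were present among 55536 annotated genes. Their RNA was measured in the cytosol of bone marrow-derived macrophages, which are macrophages grown in culture from marrow precursors, of the inbred mouse strain C57BL/6J. For 90 min they were exposed to 100 ng/ml of lipid A, a bacterial lipopolysaccharide component that Toll-like receptor 4 (TLR4) senses. The starting amount was 1 µg of RNA for each library, and ribosomal RNA was depleted. There was 1 group with 3 libraries, labelled biological replicates 1, 2 and 3. All carry the same donor identifier in the labels, and sex and age are not recorded, so the p-values below measure only the spread between these 3 libraries. Unstimulated cells were not analysed here, so levels were compared between genes within each library and no induction was measured.

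IRFs are transcription factors that share a DNA-binding domain and recognise GAAA-containing elements in interferon genes and in the genes that interferons switch on. Downstream of TLR4, the adaptor TRIF and the kinases TBK1 and IKK epsilon phosphorylate IRF3, which then turns on the interferon beta gene, while the adaptor MyD88 acts on IRF5. Secreted interferon beta signals back through its receptor to a complex that holds IRF9, called ISGF3, which raises IRF7 among many other genes. IRF8 and IRF4 bind DNA best beside a partner such as PU.1, and IRF1 and IRF2 compete for the same sites.

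The libraries held 33821479, 47843161 and 59390843 expected counts in replicates 1, 2 and 3, and 12492 to 14260 genes reached 10 counts. All 7 macrophage markers lay above the library reference described below, led by Lyz2 and Cd68. Of 23 listed markers of other cell types 10 could be tested (5 of dendritic cells, 4 of neutrophils and 1 of B cells), and these lay below it. No T or NK cell marker reached the mean of 0.1 TPM needed for the test. The summed levels of the B and plasma cell, T and NK cell, dendritic cell and neutrophil markers did not exceed 0.74, 0.04, 1.85 and 4.98 TPM in any library. Ly6g (neutrophils) and Cd3g (T cells) had 0 counts in all 3. The libraries differed in 2 kinds of RNA. The summed level of 5 nuclear noncoding RNAs was 143, 362 and 991 TPM in replicates 1, 2 and 3. The mRNAs of the listed IRF3 early targets that could be tested were highest in replicate 1. These values are given beside the results they move with.

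Irf1 was by far the most abundant member, and the 8 genes kept 1 order in all 3 libraries: Irf1, Irf5, Irf7, Irf8, Irf2, Irf9, Irf3 and Irf4. The level of each gene was read as TPM (a length-corrected share of everything quantified in a library) and set against a reference, the median over 8752 protein-coding genes averaging 1 TPM or more, which was 7.38, 6.07 and 6.21 TPM in replicates 1, 2 and 3. A gene was called above or below when its log2(TPM + 0.1) differed from the reference by at least 1 with an adjusted p under 0.05 (limma, Benjamini-Hochberg over 13344 genes). By this rule 5 of 8 members lay above the reference and 0 below, against 20.5% above and 50.6% below among all genes tested. The median difference was 1.51 log2 units for the members and -1.06 for all genes tested. The genes tested were of any type with a mean of 0.1 TPM or more. They thus include noncoding genes and genes under the 1 TPM needed for the reference. Every member averaged more than 1 TPM, so the members and all genes tested are not sets of like genes.

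**Figure D1:**
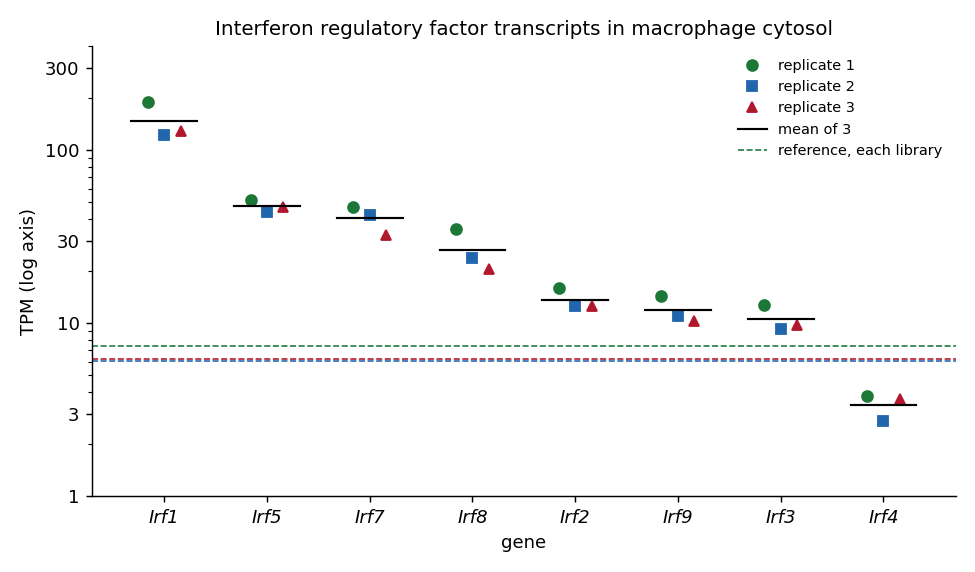
Level of each IRF gene in TPM (log axis) in the 3 libraries (points), with the mean of 3 as a bar and the reference of each library as a dashed line. Irf1 averages 147 TPM, the next 3 genes lie between 20.5 and 51.5, and Irf4 alone sits below the dashed lines in every library.

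Of the 28 pairs of members, 28 had the same order in all 3 libraries, and the same held for the values of the second deposited quantification. The exact two-sided sign-flip test over 3 libraries gave 0.25 for each pair, the smallest p it can give, so no pair can pass a threshold of 0.05 by it. The step from Irf1 to Irf5 was 3.04-fold and the step from Irf3 to Irf4 was 3.07-fold, and in both the groups of values did not overlap. Irf5 and Irf7 were not separated beyond their spread, with a difference of 0.24 ± 0.26 log2 units (SD, n = 3). The TPM ranges also overlapped for Irf7 and Irf8, for Irf2 and Irf9, and for Irf9 and Irf3, although within each library the former was higher. Irf1 held 48.6% ± 2.86 of the summed TPM of the 8 genes (SD, n = 3) and stood 42.0-fold above Irf4.

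Irf1 (ENSMUSG00000018899.16, mm10 chromosome 11, 53770014 to 53778374, + strand) encodes an activator that interferon gamma and inflammatory signals raise, and that drives antiviral and antigen presentation genes. It gave 191, 122 and 129 TPM in replicates 1, 2 and 3, from 21399, 21856 and 27457 expected counts. Replicate 1 was the highest, and every value lay above all values of every other member. The mean was 4.45 ± 0.20 log2 units above the reference (adjusted p = 3.66e-05 by limma, SD over n = 3), in the 97.2 percentile of the protein-coding genes in the reference. A single transcript carried it: Irf1-202, with 10 exons and a coding sequence of 987 bases, held 97.8%, 97.1% and 94.0% of the gene's TPM. In the second quantification this share was 93.5%, 85.0% and 82.6%.

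Irf2 (ENSMUSG00000031627.9, chromosome 8, 46739732 to 46847458, + strand), mostly a repressor at the sites IRF1 uses, was far less abundant. It gave 15.9, 12.6 and 12.5 TPM from 1833, 2531 and 2926 counts. The mean was 1.05 ± 0.05 log2 units above the reference (adjusted p = 1.98e-04 by limma, SD over n = 3), so it passed the minimum of 1 by little. The call was lost with a pseudocount of 1 TPM (0.95), in the second quantification (0.88), without replicate 1 (0.996) and when the reference took only genes averaging 5 TPM or more (0.02). Irf2-201, with a coding sequence of 1047 bases, held 83.1%, 89.7% and 83.8% of its TPM. Irf1 exceeded Irf2 by 3.40 ± 0.16 log2 units (SD, n = 3), in 3 of 3 libraries.

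Among the members that pattern recognition receptors activate, Irf5 and Irf7 were abundant and Irf3 was not. Irf5 (ENSMUSG00000029771.12, chromosome 6, 29526625 to 29541871, + strand) encodes the factor that acts with MyD88 on inflammatory cytokine genes. It gave 51.5, 43.8 and 47.1 TPM from 5729.65, 7818 and 10257 counts. The values lay close together, 2.84 ± 0.06 log2 units above the reference (adjusted p = 3.37e-05 by limma, SD over n = 3). Irf5-201, which begins at the upstream first exon (29526625 to 29526774), held 90.1%, 91.5% and 89.1% of the gene's TPM. Irf5-202 begins at a downstream first exon (29529282 to 29529483), shares the coding sequence of 1491 bases, and held 3.28%, 2.01% and 4.46%. The downstream start was thus the minor one in every library, and in the second quantification too, at 5.01%, 6.90% and 13.7%.

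Irf7 (ENSMUSG00000025498.15, chromosome 7, 141262706 to 141266481, - strand) encodes the factor that interferon raises and that widens the response to further interferon genes. It gave 46.9, 42.3 and 32.3 TPM from 4757, 6845 and 6444 counts, lowest in replicate 3. The mean was 2.60 ± 0.21 log2 units above the reference (adjusted p = 1.04e-04 by limma, SD over n = 3). No single transcript carried it. Irf7-201, with a coding sequence of 1371 bases, held 50.2%, 47.8% and 48.4% of the TPM. Irf7-203 held 23.2%, 24.6% and 23.1%, and Irf7-202, which leaves out 1 exon and has a coding sequence of 1278 bases, held 19.3%, 17.5% and 15.2%. The shares of these transcripts differed little between libraries but moved with the quantification, since the second gave Irf7-203 12.4%, 13.8% and 12.4%.

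Several of the Irf7 transcripts part at intron 5, and its sequence is shown because transcripts with 3 different outcomes there were quantified. Irf7-201 removes 69 bases (chr7:141264656-141264724, - strand). Irf7-203 removes 165 (chr7:141264560-141264724), that is 96 exon bases more, and so has a coding sequence of 1275 bases. It is nevertheless the longer transcript, with 2237 bases against 1916 for Irf7-201, so these transcripts also differ outside intron 5. The share of Irf7-203 therefore does not measure the outcome at intron 5 alone. Irf7-210, annotated as a retained-intron transcript, keeps the 69 bases and held 4.14%, 5.03% and 6.66%, from 195, 344 and 423.5 expected counts. In the line below, read from the GENCODE M21 transcripts, 10 exon bases come first in lower case and the intron kept in Irf7-210 is in capitals. The 96 further bases follow in lower case up to the capital AG at which Irf7-203 joins the next exon, and the last 10 bases are shared by all 3 transcripts.
Irf7 intron 5: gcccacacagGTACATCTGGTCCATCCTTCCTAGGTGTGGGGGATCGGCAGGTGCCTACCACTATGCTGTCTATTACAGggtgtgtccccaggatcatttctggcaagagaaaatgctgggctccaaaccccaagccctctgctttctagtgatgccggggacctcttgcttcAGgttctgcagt

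Irf3 (ENSMUSG00000003184.15, chromosome 7, 44997648 to 45002848, + strand) encodes the factor that is present before stimulation and that TBK1 activates. It gave 12.7, 9.23 and 9.71 TPM from 965, 1181 and 1385 counts. The mean was 0.67 ± 0.09 log2 units above the reference (adjusted p = 0.00117 by limma, SD over n = 3), under the minimum of 1, so it was not called. Its coding RNA was divided between Irf3-201 and Irf3-202, which share a coding sequence of 1257 bases and differ in the first exon (44997648 to 44997908 against 44997949 to 44998066). Irf3-201 held 43.1%, 47.1% and 33.8% and Irf3-202 held 31.9%, 21.9% and 20.4%. The second quantification put them the other way round, at 14.3%, 17.3% and 13.4% for Irf3-201 and 38.4%, 34.7% and 22.9% for Irf3-202. Which first exon led is therefore not settled by these values.

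A further part of the Irf3 RNA was assigned to retained-intron transcripts, led by Irf3-207, which keeps intron 5 of 7 between 2 coding exons. Irf3-207 had 10.2, 125 and 254.5 expected counts and held 0.946%, 10.1% and 16.0% of the gene's TPM in replicates 1, 2 and 3. The second quantification gave it 21.2%, 28.7% and 32.2%, so its share depends on the quantification, most of all in replicate 1. The intron is 98 bases long, has a G and C content of 65.3% and lies at chr7:45000547-45000644 (mm10, + strand). It is shown because this transcript had the highest mean share of the family's retained-intron transcripts, 9.00%, although in replicate 1 it held less than several others, Irf7-210 among them. The sequence is printed with 10 exon bases in lower case on each side and the intron in capitals.
Irf3 intron 5: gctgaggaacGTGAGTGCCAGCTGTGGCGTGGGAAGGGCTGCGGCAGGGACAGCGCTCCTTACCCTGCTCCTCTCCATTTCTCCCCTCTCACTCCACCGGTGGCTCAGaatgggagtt

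**Figure D2:**
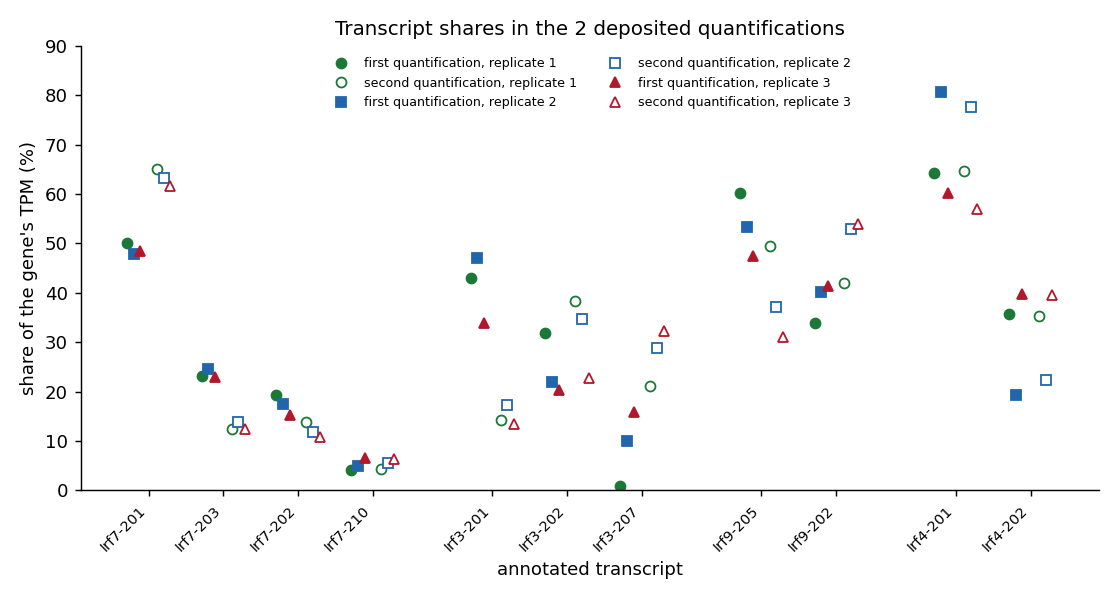
Share of each gene's TPM (%) held by the named transcripts of Irf7, Irf3, Irf9 and Irf4 in the 3 libraries, with filled points for the quantification from transcriptome alignments and open points for the one made straight from reads. Irf7-201 leads in both, while Irf3-201 and Irf3-202 change places in every library and Irf9-205 and Irf9-202 in replicates 2 and 3.

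Irf8 and Irf4, which bind beside PU.1, differed widely. Irf8 (ENSMUSG00000041515.10, chromosome 8, 120736358 to 120756694, + strand) is needed for the monocyte and macrophage lineage. It gave 35.2, 23.7 and 20.5 TPM from 5357, 5881 and 6133 counts, highest in replicate 1. The mean was 1.97 ± 0.27 log2 units above the reference (adjusted p = 3.40e-04 by limma, SD over n = 3). The call was lost against the reference of at least 5 TPM, where the difference was 0.94. Irf8-201, with a coding sequence of 1272 bases, held 96.1%, 96.9% and 94.8%. The gene lies wholly within the annotated span of Gm20388 on the same strand, which was listed at 6.86, 8.67 and 6.73 TPM, so reads from its introns cannot be told apart from that gene's.

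Irf4 (ENSMUSG00000021356.10, chromosome 13, 30749226 to 30766976, + strand) is known for B and plasma cells and, in macrophages, for alternative activation. It gave 3.77, 2.71 and 3.63 TPM, the lowest of the family in each library, from 1015, 1163 and 1896 counts over a transcript of 4764 bases (Irf4-201). Its difference from the reference was -0.95 ± 0.19 log2 units (adjusted p = 0.00134 by limma, SD over n = 3), short of the minimum, so it was not called. It was called below in the second quantification (-1.45), without replicate 3 (-1.03) and against the reference of at least 5 TPM (-1.98). Cd79b, the B cell marker with the most RNA, averaged 0.513 TPM, and Pax5 and Ms4a1 had at most 5 expected counts in any library. In bulk RNA, fewer cells with a transcript and less of it per cell cannot be told apart.

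The Irf4 RNA was split between transcripts that differ by 3 bases at the start of exon 5, within the coding sequence (1350 bases in Irf4-201 and 1347 in Irf4-202). Irf4-201 begins the exon at 30753445 and Irf4-202 at 30753448. Irf4-201 held 64.4%, 80.7% and 60.2%, from 653, 938 and 1141 expected counts, and Irf4-202 held the rest. The longer form led in all 3 libraries and in both quantifications, with an SD of 10.9 percentage points. The joined exons are shown from the M21 transcripts, with the 3 bases that only Irf4-201 holds in capitals.
Irf4-201 junction: tctctgccagcccagCAGgttcataactac
Irf4-202 junction: tctctgccagcccaggttcataactac

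Irf9 (ENSMUSG00000002325.15, chromosome 14, 55603571 to 55610030, + strand) encodes the DNA-binding part of ISGF3. It gave 14.4, 11.1 and 10.3 TPM from 1859, 2309 and 2589 counts. The mean was 0.84 ± 0.12 log2 units above the reference (adjusted p = 7.95e-04 by limma, SD over n = 3), under the minimum of 1. It was called above, at 1.07, when FPKM replaced TPM. Its transcripts begin at different first exons: Irf9-205 at 55604579 to 55604721, with a coding sequence of 1251 bases, and Irf9-202 at 55603985 to 55604243, with 1197. Irf9-205 held 60.1%, 53.4% and 47.5% and Irf9-202 held 33.9%, 40.2% and 41.5%. Irf9-205 led in every library here, but the second quantification put Irf9-202 ahead in replicates 2 and 3, at 53.0% and 54.0% against 37.1% and 31.0%.

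By their retained-intron transcripts, Irf3 and Irf7 lay above the general level and Irf1 below it. Irf4 and Irf5 have no such transcript in the annotation, which leaves 6 members. The ratio of retained-intron TPM to all other TPM of a gene, on a log2 scale with 0.1 added to both, was set against the library median over 5570 genes with both kinds of transcript, with the same test and minimum. By this rule 2 of 6 members lay above the median and 1 below, against 27.4% and 27.8% of all such genes. Counts this small do not set the family apart from all such genes. The median share over these genes was 0.861%, 1.51% and 3.08% in replicates 1, 2 and 3.

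The retained-intron share of Irf3 was 7.57%, 15.8% and 28.1% in replicates 1, 2 and 3, the highest of the 6 members in every library. It lay 2.16 log2 units above the library median (limma, adjusted p = 2.24e-04), and from 1.87 to 2.49 with any 1 library left out. Irf7 had 6.06%, 7.35% and 10.8%, and lay 1.03 above (limma, adjusted p = 0.00353), just past the minimum. These calls depend on the pseudocount: with 1 TPM added, Irf3 fell short of a call at 0.56 and Irf7 turned to -0.75. In the second quantification Irf3 kept its call, with shares of 27.7%, 34.3% and 44.6%, and Irf7 lost it at 0.77.

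Irf1 had 0.330%, 0.711% and 2.24%, and lay below the library median at -2.26 (limma, adjusted p = 4.27e-04). Its retained-intron transcript, Irf1-210, starts within intron 3 and keeps no whole intron. Irf3-210, Irf3-208 and Irf3-212, with mean shares of 3.53%, 2.47% and 1.94%, also keep no whole intron of the gene's leading coding transcript. The Irf3 share above is therefore not made of whole-intron retention alone. The same holds for Irf8-207, Irf8-202, Irf2-211, Irf2-207, Irf2-208, Irf7-211 and Irf9-201, which keep no whole intron of their leading coding transcripts. The shares of Irf9 (1.46%, 1.99% and 7.38%), Irf8 (3.18%, 1.77% and 4.30%) and Irf2 (4.22%, 2.78% and 1.52%) were not called. In 5 of the 6 members the share was highest in replicate 3, as it was in 68.3% of all such genes, and Irf2 was the exception. Nuclear RNA was also highest there, with Malat1, a nuclear speckle RNA, at 128, 335 and 913 TPM and Neat1, of nuclear paraspeckles, at 12.9, 24.1 and 66.9. Its part in the shares was not tested.

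**Figure D3:**
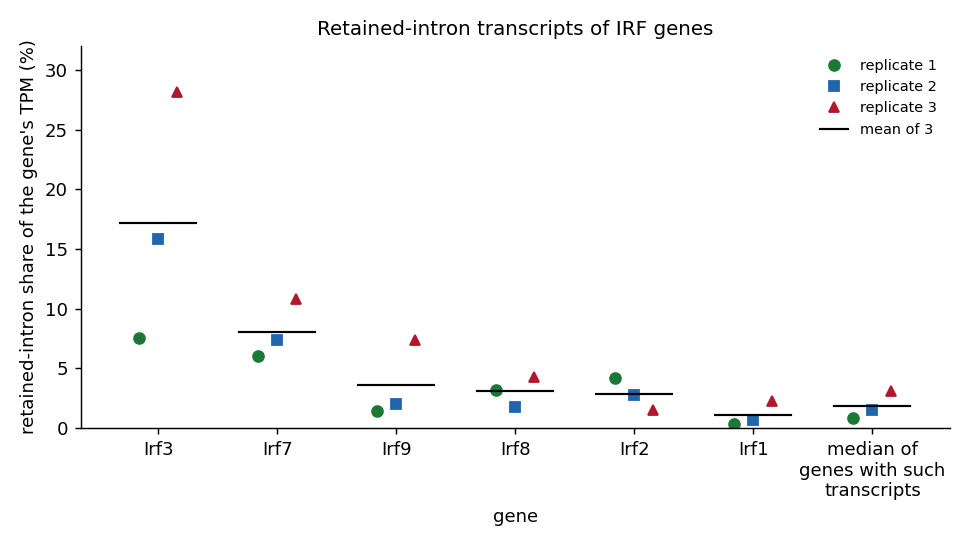
Share of each gene's TPM (%) in annotated retained-intron transcripts, by library, for the 6 IRF genes that have such transcripts and, at the right, the library median over 5570 genes. Irf3 spans 7.57% to 28.1%, and replicate 3 is the highest library for every gene shown except Irf2.

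No member was called for its spread between the libraries by the edgeR goodness-of-fit test. On rounded expected counts, 0 of 8 members were called (edgeR, Benjamini-Hochberg threshold 0.05), against 2.31% of the 12339 genes tested. With so small a share overall among all genes, 0 of 8 does not set the members apart. At an unadjusted p under 0.05 there were 723 genes in all, of which 1 was a member, Irf8, with an adjusted p of 0.844. The SD of log2 CPM (a library-size-corrected count) ran from 0.05 for Irf2 to 0.26 for Irf8, with a median of 0.16 against 0.12 for all genes tested. Irf5 had 7.34, 7.39 and 7.47 log2 CPM and Irf2 5.70, 5.76 and 5.66, both nearly level across the libraries. Irf8 had 7.25, 6.98 and 6.73 and Irf1 9.24, 8.87 and 8.89, both highest in replicate 1. Relative to the mean of replicates 2 and 3, replicate 1 had 1.31-fold more Irf8 and 1.29-fold more Irf1. In all, 4 of 8 members were highest in replicate 1 (Irf1, Irf3, Irf8 and Irf9), against 38.3% of all genes tested.

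The listed target genes of these factors differed more between the libraries, but the lists were chosen with earlier results of these data known. The counts below therefore describe the lists and do not test them. Of the 9 tested IRF3 early targets, 9 were highest in replicate 1, against 38.3% of all genes tested. Their median difference from the other libraries was 0.65 log2 units, against -0.000385 for all genes tested and 0.11 for the members. For 5 of them the spread was called (Ifnb1, Cxcl10, Ifit1, Ifit2 and Isg15, named after their values were seen), against 2.31% of all genes tested. The spread was called for 1 of the 12 ISGF3 targets (Mx2) and for 3 of the 13 tested IRF1 or IRF8 targets (Il12b, Gbp2 and Il27), Il12b, Gbp2 and Mx2 also being named after their values were seen. Ifnb1, encoding interferon beta, gave 5.34, 4.27 and 4.93 log2 CPM (46.5, 17.6 and 28.3 TPM). Cxcl10, a chemokine of the interferon response, gave 9.45, 8.47 and 7.61 log2 CPM (482, 198 and 109 TPM). The reference in TPM was also highest in replicate 1, so TPM values overstate the lead of that library. Of the 12 ISGF3 targets 11 were highest in replicate 1, by a median of 0.29, and of 13 IRF1 or IRF8 targets 11 were, by 0.22. The share of all genes tested is again 38.3%. Irf3 itself had 4.78, 4.66 and 4.59 log2 CPM, and its SD of 0.10 was below the smallest SD among the IRF3 early targets, 0.18. Irf9 had 5.72, 5.63 and 5.49, and its SD of 0.12 lay within the 0.10 to 0.49 of the ISGF3 targets. The activity of the IRF proteins was not measured.

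**Figure D4:**
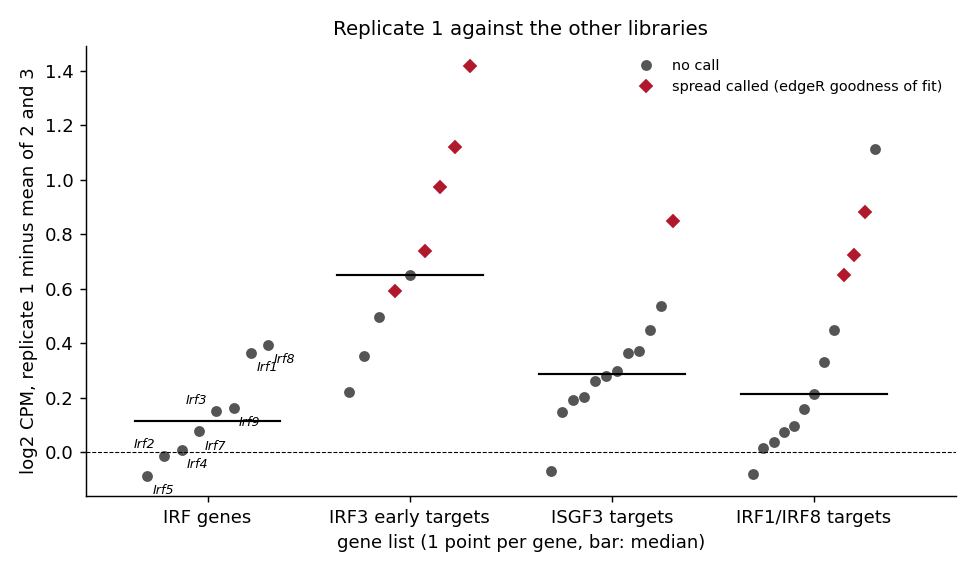
Difference in log2 CPM between replicate 1 and the mean of replicates 2 and 3 for each gene of 4 lists (points, ordered by value), with list medians as bars and diamonds where the spread between the libraries was called. The IRF genes have a median of 0.11 and no call, and the IRF3 early targets a median of 0.65 and 5 calls.

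The upstream sequences of Irf1, Irf8 and Irf2 are shown because Irf1 and Irf8 differed most between replicate 1 and the rest, whereas Irf2 varied least. None of them was called for spread. In RefSeq (GRCm38.p6) the 8 members had 11 promoter windows, each 250 bases before to 50 after a start. Both strands were searched for TTCNNNGAA (the GAS element of interferon-responsive genes), GAAA, any 2 bases and GAAA (the interferon-stimulated response element, ISRE), GGAA, any 2 bases and GAAA (the composite element of PU.1 with IRF4 or IRF8) and the NF-kB consensus. Among 32851 promoters of this length, 8.30% held the GAS letters, 3.44% the ISRE, 2.72% the composite element and 8.46% the NF-kB consensus. Of the 11 windows 3 held any of these, and the share of all promoters that hold any was not counted. The Irf1 window at the upstream start held TTCCCCGAA at -90 and GGGGAATCCC at -13, and the Irf8 window at the upstream start held TTCTCGGAA at -171 and TTCAGAGAA at -153. The Irf2 window held TTCCGAGAA at -224, the NF-kB match GGGGATTTCC at -17, and GGAAGTGAAA at -247 overlapping GAAAATGAAA at -241. Positions count bases from the RefSeq start to the first base of the match. The 250 bases before each start follow, with the matches in capitals, at chr11:53769764-53770013, chr8:120736108-120736357 and chr8:46739495-46739744, all on the + strand. A match describes the letters only, and binding was not measured.
Irf1 upstream: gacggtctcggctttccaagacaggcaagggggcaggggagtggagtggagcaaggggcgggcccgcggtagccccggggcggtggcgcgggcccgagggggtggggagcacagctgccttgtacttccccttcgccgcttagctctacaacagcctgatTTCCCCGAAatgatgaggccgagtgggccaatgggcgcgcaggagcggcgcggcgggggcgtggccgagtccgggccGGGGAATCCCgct
Irf8 upstream: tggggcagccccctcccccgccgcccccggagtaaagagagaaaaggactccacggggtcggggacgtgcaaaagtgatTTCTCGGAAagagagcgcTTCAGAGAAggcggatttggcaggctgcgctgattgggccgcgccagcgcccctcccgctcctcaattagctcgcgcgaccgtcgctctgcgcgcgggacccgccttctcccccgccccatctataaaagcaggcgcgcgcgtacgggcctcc
Irf2 upstream: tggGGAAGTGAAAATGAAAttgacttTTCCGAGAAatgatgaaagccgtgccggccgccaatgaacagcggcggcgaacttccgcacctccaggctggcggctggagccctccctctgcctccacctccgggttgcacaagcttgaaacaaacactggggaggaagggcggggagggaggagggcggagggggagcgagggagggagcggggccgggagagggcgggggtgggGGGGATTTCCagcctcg

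The genes that feed into the family were mostly near or above the reference. Of 18 genes of the activation route 7 lay above and 1 below, with a median of 0.74 log2 units. Here and in the lists that follow, the shares over all genes tested, low and noncoding genes included, are 20.5% above and 50.6% below. Tank, an adaptor of TBK1, gave 45.5 ± 8.41 TPM and Ikbke, encoding IKK epsilon, 27.2 ± 4.98 (SD, n = 3), against 10.5 ± 1.88 for Irf3. Tbkbp1, encoding another TBK1-binding protein, was below at 2.68 ± 0.09. Of 7 interferon receptor and Janus kinase genes 6 lay above, with a median of 2.24. The interferon alpha and beta receptor gene Ifnar2 gave 52.4 ± 3.67 TPM, the interferon gamma receptor gene Ifngr1 49.1 ± 6.99, and the kinase gene Tyk2, which was not called, 8.21 ± 0.99.

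Among 12 partner genes 4 lay above the reference and 4 below, with a median of 0.46 log2 units. Spi1, encoding PU.1, gave 75.1 ± 12.2 TPM, 11.3-fold the reference, which was above both Irf8 at 26.5 ± 7.75 and Irf4 at 3.37 ± 0.58 (SD, n = 3). Stat2, encoding a partner of IRF9 in ISGF3, gave 14.2 ± 0.98 TPM, beside 11.9 ± 2.20 for Irf9. Batf also lay above, and both were named after their values were seen. Those below were Spib, encoding the PU.1 relative of B and plasmacytoid dendritic cells, at 0.257 TPM, Batf2 at 2.39, Batf3 at 0.963 and Irf2bp1, encoding an IRF2-binding corepressor, at 1.14. Of 9 genes for enzymes that modify IRF proteins 4 lay above and 1 below. Among those above was the kinase gene Lyn at 44.2 ± 8.35 TPM.

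Downstream, all 9 tested IRF3 early targets lay above the reference, with a median of 3.76 log2 units against -1.06 for all genes tested. This list, like the others, was chosen with earlier results of these data known. Ccl5, a chemokine gene, gave 304 ± 82.9 TPM and Cxcl10 263 ± 195 (SD, n = 3), while Ifna4, an interferon alpha gene, was too low to test at 3, 2 and 1 expected counts. Of 12 ISGF3 targets 7 lay above and 0 below, with a median of 1.10, led by Bst2, encoding the virus tether tetherin, at 104 ± 26.6 TPM and Rtp4 at 63.6 ± 23.4. The 14 IRF1 or IRF8 targets were divided, with 9 above, 4 below and Il27 not called at 13.8 ± 7.05. Cybb, encoding the phagocyte oxidase subunit, gave 161 ± 16.6 TPM and Gbp5, a guanylate-binding protein gene, 67.6 ± 18.1. Nos2 (inducible nitric oxide synthase, 0.960 TPM), Il12a (0.107), Cxcl9 (0.203) and Ciita (the activator of class II genes, 0.947) lay below. Irf1 itself was at 147 ± 37.7 TPM. Of 5 genes of alternative activation, the setting in which IRF4 is known in macrophages, Mrc1 lay above at 110.4 ± 6.15 TPM, Chil3 was not called at 3.50 ± 0.32, and Arg1, Retnla and Ccl17 were too low to test, with at most 3 counts in a library.

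**Figure D5:**
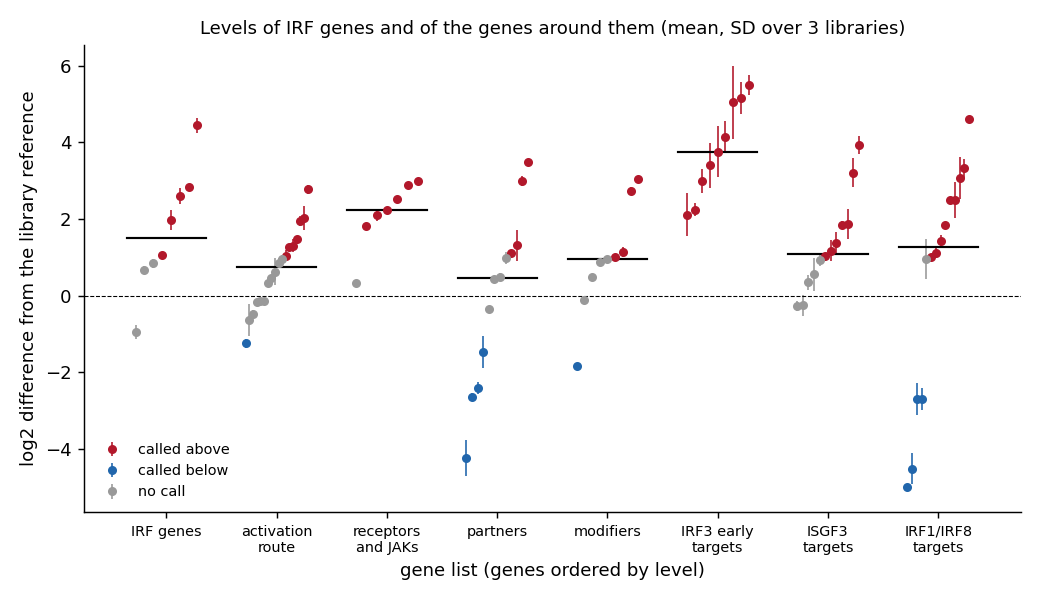
Log2 difference of each tested gene from the library reference (mean with SD over 3 libraries) for the IRF genes and 7 lists of genes around them, coloured by call, with list medians as bars and 0 as the reference. The IRF genes have a median of 1.51, the receptors and Janus kinases 2.24 and the IRF3 early targets 3.76, and the IRF1 or IRF8 targets split into 9 above and 4 below.

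Gene levels of the family were compared between the deposited quantifications. The log2 ratio of TPM in the second over the first, centred on the library median, called 0 of 8 members in either direction (limma, Benjamini-Hochberg), against 2.72% above and 1.94% below among 9491 genes. At an unadjusted p under 0.05 there were 4 members, Irf1, Irf2, Irf7 and Irf9, and the share of all genes at this p was not counted. Of these, 3 also had an adjusted p under 0.05 by limma (Irf2, Irf9 at 0.0222 and Irf7 at 0.0269). They were not called because their ratios were under the minimum of 1. Irf2 had the largest ratio, 0.30 ± 0.07 (adjusted p = 0.0142 by limma, SD over n = 3), and the other 7 lay between -0.11 and 0.08. The strand setting of the counting was not given, which bears on members with overlapping genes on the opposite strand. Tnpo3, which overlaps Irf5 by 1045 bases, was listed at 8.64, 8.09 and 8.75 TPM, Bcl2l12, which overlaps Irf3 by 1065, at 2.12, 1.70 and 1.80, and Gm17334, which overlaps Irf1 by 907, at 1.05, 1.17 and 2.74. A search for near copies, at 95% identity over 100 bases or more, found 1 besides that overlap, the pseudogene Gm38002 for 180 bases of Irf9, which had 0 counts.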

How the data were processed

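RNA of the cytosolic fraction, depleted of ribosomal RNA, was sequenced in 3 libraries of 1 group. Per the text deposited with the files, the authors used mm10 with the GENCODE M21 annotation. The authors deposited, from transcriptome alignments, expected counts, TPM and FPKM per gene and transcript (the first quantification), and estimated counts and TPM per transcript straight from reads (the second quantification). Units are per the file headers. For tools, versions and use of strand, the deposited text and labels are silent: not given in the sources used here. TPM was used throughout and the deposited FPKM in 1 alternative.

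All 55536 annotated genes matched M21 identifiers. Entries that are not annotated genes held 0.443%, 0.164% and 0.0982% of the counts and were left out. Counts on annotated genes were 33671556, 47764593 and 59332546, so 3 counts, the limit that a count of 0 allows, are 0.0891, 0.0628 and 0.0506 CPM (counting error only).

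The members and gene lists were chosen with earlier results of these data known. Beside the members, the text names of each list the 2 genes with the highest mean TPM, those called below the reference where 5 or fewer, and those without a call where 3 or fewer. Some genes this rule names are not reported here. Levels (mean of at least 0.1 TPM), retained-intron ratios (total of at least 1 TPM) and ratios between quantifications (at least 1 TPM) were tested with limma 3.58.1 as one-sample moderated tests in R 4.3.3. Spread was tested with the goodness-of-fit function of edgeR 4.0.16 on rounded expected counts (at least 10 per library, TMM, log2 CPM with a prior count of 2). P-values were adjusted by Benjamini-Hochberg over all genes. In 1 alternative the counts were scaled by size factors from DESeq2 1.42.0. The steps were run on simulated data, where a minimum recovery was required of the limma steps but not of the goodness-of-fit test. Near copies were searched with BLAST+ 2.17.0. Promoter letters are from RefSeq (GRCm38.p6), where all 8 members matched by symbol, and intron and junction letters from the M21 transcripts. Alternatives covered pseudocounts, filters, the reference, the quantification and leaving out each library.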

Additional observations from a re-analysis of the deposited data

How the results depend on the processing

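No paired analysis was possible because the 3 libraries form 1 group. The order of the members held for 28 of 28 pairs in the second quantification. A pseudocount of 1 TPM or leaving out 1 library cannot change an order that all 3 libraries share, so those alternatives did not test it. For spread, 0 members were called under the 5 alternatives run there. Of 64 member levels under alternatives, 53 kept their direction and side of the threshold. Against the reference of at least 5 TPM, 3 members lay above and 1 below (all genes above: 1418), Irf3 turned to -0.36 and Irf9 to -0.18. In the second quantification 1 member lay below. Without a filter 14505 genes lay below. Leaving out 1 library gave 0 to 1 members below, 98 to 181 genes called for spread (98 without replicate 3, 165 without replicate 1 and 181 without replicate 2), and 168 to 296 genes above and 110 to 162 below between quantifications (168 and 110 without replicate 2).

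Of 36 retained-intron ratios under alternatives, 23 kept direction and call. With a pseudocount of 1 TPM, 0 members lay above and 2 below, and Irf7 turned to -0.75. With a total of at least 5 TPM, 965 genes lay above and 812 below, and Irf2, Irf8 and Irf9 turned to 0.56, 0.52 and 0.70. In the second quantification 1 member lay above, and these genes turned to 0.39, 0.10 and 0.0052. Leaving out 1 library, Irf9 ranged from -0.53 to 0.029 (above 0 without replicate 1 or 2) and Irf2 from -0.78 to 0.23 (above 0 without replicate 3). Between quantifications, a pseudocount of 1 TPM gave 107 genes below, and Irf1 and Irf4 turned to -0.18 and 0.073. At least 5 TPM gave 80 above and 93 below, and Irf3, Irf5 and Irf8 turned to 0.023, 0.0041 and 0.043. The stricter filters tested fewer genes, and the cause of the other changes was not tested.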
